A study of Mus musculus with 12 samples.

Results

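The xenobiotic and aldehyde metabolism enzyme families were followed through RNA-seq of 3 mouse melanocytic lines with and without SX-682. Members were chosen by symbol as the protein-coding cytochromes P450 (CYP), aldo-keto reductases (AKR), aldehyde dehydrogenases (ALDH), cytosolic glutathione S-transferases (GST), sulfotransferases (SULT) and UDP-glucuronosyltransferases (UGT), leaving out Cyp51 and Aldh18a1. They were 165 of the 34513 genes counted, with 85 CYP, 16 AKR, 20 ALDH, 21 GST, 13 SULT and 10 UGT genes. The lines were MelanA, labelled non-tumorigenic, and the melanoma lines B16F0 and B16F10. Each was sequenced as an untreated control (treatment "None") and after SX-682, an antagonist of the chemokine receptors CXCR1 and CXCR2, giving 6 groups of 2 libraries. The dose and duration of SX-682 for these cultures are not given in the sources used here. Each group is a single cell line, and the labels do not say whether its libraries came from separate cultures, so p-values measure the spread between these libraries, which may be technical. In bulk RNA, fewer cells expressing a gene and less RNA per cell cannot be told apart.

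These enzymes handle foreign and endogenous reactive compounds in sequence. CYP enzymes insert oxygen into drugs, steroids, retinoids and fatty acids, AKR enzymes reduce aldehydes and ketones to alcohols, and ALDH enzymes oxidize aldehydes to acids. GST, SULT and UGT enzymes then attach glutathione, sulfate or a sugar acid, and the conjugates are exported. The pathway is best known from liver, and melanocytes are a setting in which aldehydes and quinones also arise during pigment synthesis.

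Library totals ranged from 48876982 to 85322092 counts on genes. A floor of 3 counts in a library, 0.033 to 0.0623 CPM (each count relative to the library total, on totals scaled by the trimmed mean of M values), was treated as the limit of detection, and it covers counting error only. The 9 melanocytic markers summed to 1350 to 1380 CPM in MelanA libraries, 16200 to 19400 CPM in B16F0 and 15300 to 25200 CPM in B16F10. MelanA had Sox10 at 655 to 753 CPM but Tyr under 1 CPM in every library, and Gpr143 was at 0 counts in its SX-682 libraries. With SX-682 the melanocytic sum went from at least 19300 to at most 16400 CPM in B16F0 and from 25200 to at most 15500 CPM in B16F10. Markers of immune cells summed to 23.1 to 23.2 CPM in MelanA controls and 48.8 to 49.8 CPM with SX-682. The rise was that of Cd68, from 15.9 and 16.1 CPM to 43.9 and 45.3 CPM. Lyz2 fell in MelanA from 6.92 and 7.07 CPM to 4.73 and 4.38 CPM. Ptprc stayed at or under 0.255 CPM in MelanA, and Cd3e was at 0 in its SX-682 libraries. Keratinocyte, endothelial and hepatocyte markers stayed at or under 4.05, 2.15 and 0.561 CPM, and fibroblast markers lay between 6.92 and 57.2 CPM. The part of these shifts in the results was not tested.

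Expression was unevenly spread over the families. In 49 members no library held more than 3 counts, 33 of them CYP, 7 UGT, 5 SULT and 4 AKR genes. Every ALDH and GST member exceeded 3 counts in some library. At least 10 counts in every library were held by 43 members. The filter for expressed genes asked for enough counts in about 2 libraries, so a member could pass through 1 group alone. It kept 78 members for testing: 28 CYP, 10 AKR, 17 ALDH, 18 GST, 4 SULT and 1 UGT gene. The other 87 members never exceeded 24 counts in a library, a count reached by Cyp4x1, and they were not tested. Per kilobase of exon the abundant members were few. Gstp1, which conjugates electrophiles to glutathione, stood at 176 CPM per kilobase in MelanA controls, 453 in B16F0 and 400 in B16F10. Akr1a1, the aldehyde reductase, stood at 153, 191 and 261 CPM per kilobase in the same order. Aldh2, the mitochondrial acetaldehyde dehydrogenase, reached 67.0, 80.4 and 61.5 CPM per kilobase. The leading CYP genes were lower, with the arachidonic acid epoxygenase Cyp2j6 at 16.9, 32.4 and 35.9 CPM per kilobase and the orphan enzyme Cyp20a1 at 16.1, 16.6 and 13.5. No SULT member exceeded 0.82 CPM per kilobase in a control group, a level that Sult6b1 had in MelanA.

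**Figure D1:**
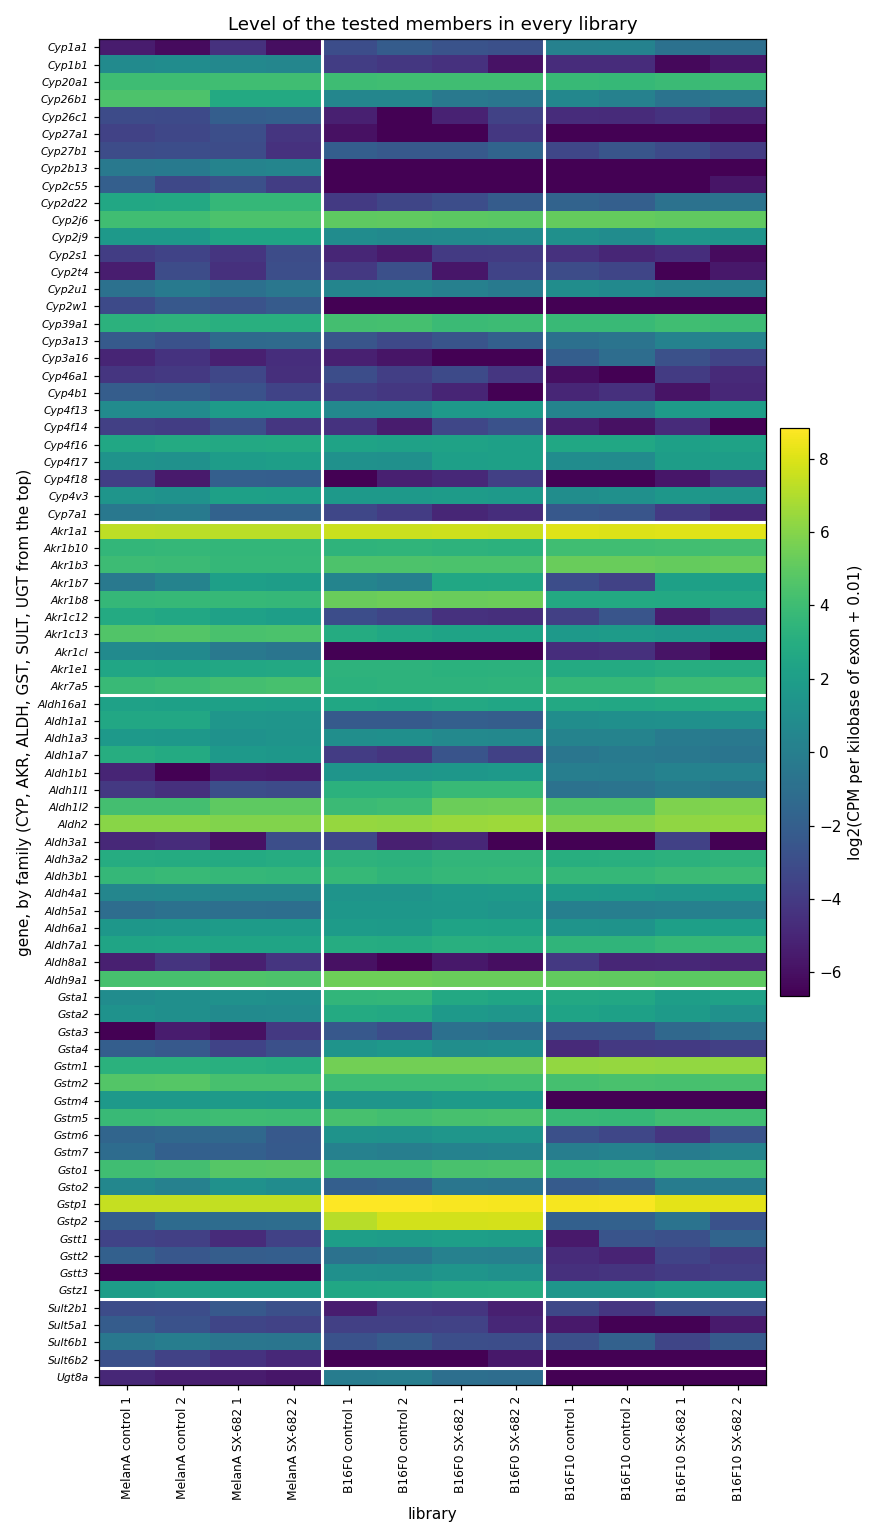
Colour gives the level of each of the 78 tested members (rows, by family) in each of the 12 libraries (columns), as log2 of CPM per kilobase of exon plus 0.01. Gstp1, Akr1a1 and Aldh2 are bright in every column, and most CYP rows and all SULT rows are dark, while Gstp2, Gstm4 and Gstt3 change colour between lines rather than between treatments.

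With SX-682, 10 members rose and 4 fell in all 3 lines at an adjusted p under 0.05 in edgeR's quasi-likelihood test. These are 12.8% and 5.13% of the 78 tested members, beside 11.3% and 11.7% of all 18338 genes tested. The members raised in every line were Akr1b7, Aldh1l1, Aldh1l2, Aldh6a1, Cyp2d22, Cyp4f13, Cyp4f17, Gsta3, Gsto1 and Gsto2, and those lowered were Akr1b3, Aldh1a3, Cyp26b1 and Cyp7a1. A change of at least 0.5 on the log2 scale in every line was found for 7 raised and 2 lowered members, or 8.97% and 2.56%, beside 2.60% and 1.97% of all genes. No test compares the members with other genes, and the median log2 fold change over the tested members was 0.02 in MelanA, 0.06 in B16F0 and 0.07 in B16F10, beside 0.00 over all genes.

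Promoter sequence is shown for 6 of these 14 members, the neighbours Gsto1 and Gsto2 and 4 of the strongly changed genes, because they moved in the same direction in every line, although the Gsta3 call in MelanA rests on few counts. The sequences are from RefSeq on GRCm38.p6, 5′ to 3′ on the gene's strand, and hold up to 250 bases before the start site without bases that lie inside the gene of the deposited table. They lie at chr6:34412112-34412333, plus strand for Akr1b7, chr17:32947403-32947611, minus strand for Cyp4f13, chr19:47854723-47854969, plus strand for Gsto1, chr19:47865295-47865533, plus strand for Gsto2, chr1:21240335-21240584, plus strand for Gsta3 and chr6:84593909-84594060, minus strand for Cyp26b1. Capitals mark a match to any of 3 motifs, searched on both strands: the antioxidant response element TGACNNNGC, the aryl hydrocarbon receptor core TNGCGTG and the C/EBP-ATF response element TGATGNAAN.
Akr1b7: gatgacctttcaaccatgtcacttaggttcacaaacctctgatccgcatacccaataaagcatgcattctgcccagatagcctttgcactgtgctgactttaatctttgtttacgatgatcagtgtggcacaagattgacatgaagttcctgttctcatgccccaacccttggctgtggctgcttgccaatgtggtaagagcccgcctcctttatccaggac
Cyp4f13: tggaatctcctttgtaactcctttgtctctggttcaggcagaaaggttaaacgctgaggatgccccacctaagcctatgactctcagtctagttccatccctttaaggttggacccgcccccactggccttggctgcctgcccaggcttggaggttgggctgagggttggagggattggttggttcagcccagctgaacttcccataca
Gsto1: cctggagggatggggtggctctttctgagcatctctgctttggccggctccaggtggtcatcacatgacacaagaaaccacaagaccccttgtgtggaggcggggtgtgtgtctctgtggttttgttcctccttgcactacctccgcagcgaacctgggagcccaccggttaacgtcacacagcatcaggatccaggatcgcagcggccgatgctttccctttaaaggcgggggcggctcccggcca
Gsto2: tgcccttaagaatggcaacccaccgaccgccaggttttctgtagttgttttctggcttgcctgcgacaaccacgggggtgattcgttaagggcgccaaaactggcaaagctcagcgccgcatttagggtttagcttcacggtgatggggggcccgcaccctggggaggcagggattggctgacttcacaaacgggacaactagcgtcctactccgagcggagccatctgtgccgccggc
Gsta3: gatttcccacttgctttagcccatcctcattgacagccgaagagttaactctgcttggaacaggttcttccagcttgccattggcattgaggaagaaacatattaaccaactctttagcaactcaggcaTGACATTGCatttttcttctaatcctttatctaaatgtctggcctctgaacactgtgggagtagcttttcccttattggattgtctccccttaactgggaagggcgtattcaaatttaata
Cyp26b1: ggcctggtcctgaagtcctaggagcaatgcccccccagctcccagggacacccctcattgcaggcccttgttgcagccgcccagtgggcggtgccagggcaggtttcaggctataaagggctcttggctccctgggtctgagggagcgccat
Of the 14 members, 8 had an entry in the promoter table, and Aldh1l2, Cyp2d22, Cyp4f17, Cyp7a1, Akr1b3 and Aldh1a3 were those without. A single match was found among the 8, the antioxidant element in Gsta3 that begins 121 bases before the start. Over the 133 members with an entry, the antioxidant element was found in 7 (5.26%), the aryl hydrocarbon receptor core in 4 (3.01%) and the C/EBP-ATF element in 2 (1.5%). In all 32851 promoter windows of the table these shares were 10.2%, 4.1% and 3.44%. A match is a description of letters and not a binding site.

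Among the aldo-keto reductases, Akr1b7 made the greatest change of any member named here. Akr1b7 (chr6:34412334-34423142) encodes an aldose reductase-like enzyme that reduces lipid-derived aldehydes. It had 0.984 and 1.55 CPM in MelanA controls and 5.44 and 5.09 CPM with SX-682. B16F0 controls held 1.63 and 1.29 CPM and their SX-682 libraries 7.6 and 7.81 CPM. In B16F10 controls it was near the floor, at 9 and 6 counts (0.149 and 0.0939 CPM), and SX-682 brought it to 340 and 338 counts (5.61 and 5.78 CPM). The treated libraries therefore lay between 5.09 and 7.81 CPM in all lines and above every control, while the controls differed between lines. The log2 fold changes were 2.05 ± 0.17 (SE, n = 2 against 2, adjusted p = 3.4e-11) in MelanA, 2.39 ± 0.18 (adjusted p = 1.2e-12) in B16F0 and 5.54 ± 0.28 (adjusted p = 1.4e-16) in B16F10. The B16F10 response exceeded that of B16F0 by 3.15 ± 0.38 on the log2 scale (adjusted p = 1.6e-07), and untreated B16F10 had less Akr1b7 than untreated B16F0 by a log2 fold change of -3.58 ± 0.33 (adjusted p = 8.9e-11). An antisense gene overlaps 27.2% of its exonic bases, so without stated strand use reads of the pair cannot be told apart there.

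The other members of the Akr1b cluster on chromosome 6 moved little or not detectably. Akr1b3, which encodes aldose reductase itself, fell in all 3 lines, with log2 fold changes of -0.24 ± 0.026 (adjusted p = 7.2e-09), -0.10 ± 0.026 (adjusted p = 0.0019) and -0.11 ± 0.025 (adjusted p = 0.00052) in MelanA, B16F0 and B16F10. It went from 128 and 124 CPM to 106 and 108 CPM in MelanA, a drop that left no overlap between the groups. Akr1b8 did not pass the test in any line, with log2 fold changes between -0.05 and 0.02, and Akr1b10 passed in B16F0 (log2 fold change -0.13 ± 0.045, adjusted p = 0.02).

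Akr1c12 on chromosome 13 and Akr1cl on chromosome 1 were mainly MelanA transcripts. Akr1c12, a hydroxysteroid reductase, had 8.83 and 7.79 CPM in MelanA controls and 5.72 and 5.15 CPM with SX-682 (log2 fold change -0.61 ± 0.16, adjusted p = 0.0018). In B16F0 and B16F10 controls it had 5 to 13 counts, and its fall in B16F10 (5 and 13 counts to 1 and 3, log2 fold change -2.05 ± 0.71, adjusted p = 0.016) was lost without the second control library (-1.26, adjusted p = 0.3) and without the first SX-682 library (-1.47, adjusted p = 0.15). It shares 28.6% of its 50-base words with Akr1c13, so the split of reads between them is uncertain. Akr1cl had 606 and 622 counts in MelanA controls and 231 and 204 counts with SX-682 (log2 fold change -1.22 ± 0.19, adjusted p = 4e-06). It had 0 counts in every B16F0 library, and MelanA controls were at least 164-fold higher than B16F0 controls, taking 3 counts per library as the floor. In B16F10 it went from 8 and 9 counts to 2 and 0, a control to SX-682 ratio of 8.14 (95% exact counting interval 1.93 to 72.6), and the call was lost without the second SX-682 library (adjusted p = 0.068).

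Aldehyde dehydrogenases of folate metabolism were called as raised in every line, though the Aldh1l1 call in B16F10 was lost in several alternative fits. Aldh1l2 (chr10:83487450-83534140), the mitochondrial formyltetrahydrofolate dehydrogenase, went from 138 and 137 CPM to 238 and 240 CPM in MelanA. In B16F0 it went from 112 and 120 CPM to 311 and 316 CPM, and in B16F10 from 187 and 188 CPM to 434 and 442 CPM. Replicates lay close together and the groups did not overlap in any line. The log2 fold changes were 0.80 ± 0.027 (adjusted p = 2.8e-20), 1.44 ± 0.028 (adjusted p = 2e-26) and 1.23 ± 0.027 (adjusted p = 3.6e-25). The mean B16 response was larger than that of MelanA by 0.53 ± 0.033 (adjusted p = 7.3e-14). An antisense gene covers 14.1% of its exonic bases.

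Its cytosolic counterpart Aldh1l1 (chr6:90486427-90600203) had very different levels in the lines. Untreated B16F0 had 44.9 and 45.2 CPM, untreated B16F10 2.48 and 2.77 CPM and untreated MelanA 0.22 and 0.154 CPM. With SX-682 these became 61.9 and 61.3 CPM, 3.59 and 2.85 CPM, and 0.547 and 0.479 CPM. The log2 fold change was 1.45 ± 0.3 in MelanA (adjusted p = 0.00014), 0.45 ± 0.06 in B16F0 (adjusted p = 2.2e-07) and 0.30 ± 0.12 in B16F10 (adjusted p = 0.045). The B16F10 call did not hold without its first SX-682 library (0.11, adjusted p = 0.6) or without its first control library (0.22, adjusted p = 0.26). A block for replicate number gave an adjusted p of 0.057.

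Aldehyde dehydrogenases of amino acid breakdown also moved. Aldh6a1, the methylmalonate semialdehyde dehydrogenase of valine breakdown, rose in every line. On the log2 scale the rises were 0.27 ± 0.058 (MelanA), 0.51 ± 0.058 (B16F0) and 0.76 ± 0.061 (B16F10) (adjusted p = 0.00024, 1.1e-08 and 7.4e-12). The antisense gene Bbof1 overlaps 18.6% of the exonic bases of Aldh6a1. Aldh4a1, which acts in proline breakdown, rose in B16F0 from 12.4 and 12.6 CPM to 16.5 and 17.2 CPM and fell in B16F10 from 17.0 and 16 CPM to 13.8 and 14.5 CPM. Its log2 fold change was 0.43 ± 0.075 (adjusted p = 1.7e-05) against -0.22 ± 0.075 (adjusted p = 0.016), and the difference between these lines was -0.65 ± 0.11 (adjusted p = 1.8e-05). The B16F10 fall was lost without the first SX-682 library (adjusted p = 0.11) or the first control (adjusted p = 0.14), and 32.5% of the exonic bases of Aldh4a1 lie in another gene on the same strand. Aldh3a2, the fatty aldehyde dehydrogenase, and Aldh7a1, of lysine breakdown, rose by 0.20 to 0.28 on the log2 scale in the B16 lines and had log2 fold changes of 0.00 and -0.03 in MelanA (adjusted p = 1.0 and 0.6). For each of them the B16 mean response was higher than the MelanA response by 0.25 (adjusted p = 0.00044 and 0.0009).

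The tested Aldh1a genes fell or did not pass the test, apart from Aldh1a7 in B16F0. Aldh1a1 (chr19:20492715-20643465), which oxidizes retinaldehyde to retinoic acid, had 30.3 CPM in both MelanA controls and 13.8 and 13.1 CPM with SX-682 (log2 fold change -1.17 ± 0.071, adjusted p = 1.7e-14). In B16F0 it had 1.0 and 0.966 CPM as control and 1.24 and 1.14 CPM with SX-682, and in B16F10 9.41 and 10.2 CPM and then 10.8 and 11.3 CPM. Neither B16 change passed (adjusted p = 0.18 and 0.077), and the B16 mean response was above that of MelanA by 1.40 ± 0.12 (adjusted p = 9.4e-11). The neighbouring Aldh1a7, a close relative, behaved alike in MelanA, going from 16.5 and 14.6 CPM to 6.55 and 6.05 CPM (log2 fold change -1.30 ± 0.12, adjusted p = 3e-10). In B16F0 it had 9 and 6 counts and then 21 and 7 (log2 fold change 1.20 ± 0.47, adjusted p = 0.035), a call lost without the first SX-682 library (0.46, adjusted p = 0.66) and without either control library. Aldh1a3, another retinaldehyde dehydrogenase, fell by 0.37 ± 0.084, 0.40 ± 0.095 and 0.62 ± 0.11 on the log2 scale in MelanA, B16F0 and B16F10 (adjusted p = 0.00044, 0.00068 and 1.9e-05).

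Aldh2 took opposite directions in the lines, by small amounts. It went from 343 CPM in both MelanA controls to 306 and 309 CPM, from 419 and 405 CPM to 471 and 479 CPM in B16F0, and from 316 and 315 CPM to 399 and 414 CPM in B16F10. The log2 fold changes were -0.16 ± 0.024 (adjusted p = 1.9e-06), 0.21 ± 0.024 (adjusted p = 2e-08) and 0.37 ± 0.024 (adjusted p = 1e-13), and the B16 mean differed from MelanA by 0.44 ± 0.03 (adjusted p = 3.9e-13). Opposite calls in different lines were made for 6 members, Aldh1a7, Aldh2, Aldh4a1, Aldh9a1, Cyp2j6 and Cyp39a1, which is 7.69% of those tested beside 9.59% of all genes.

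**Figure D2:**
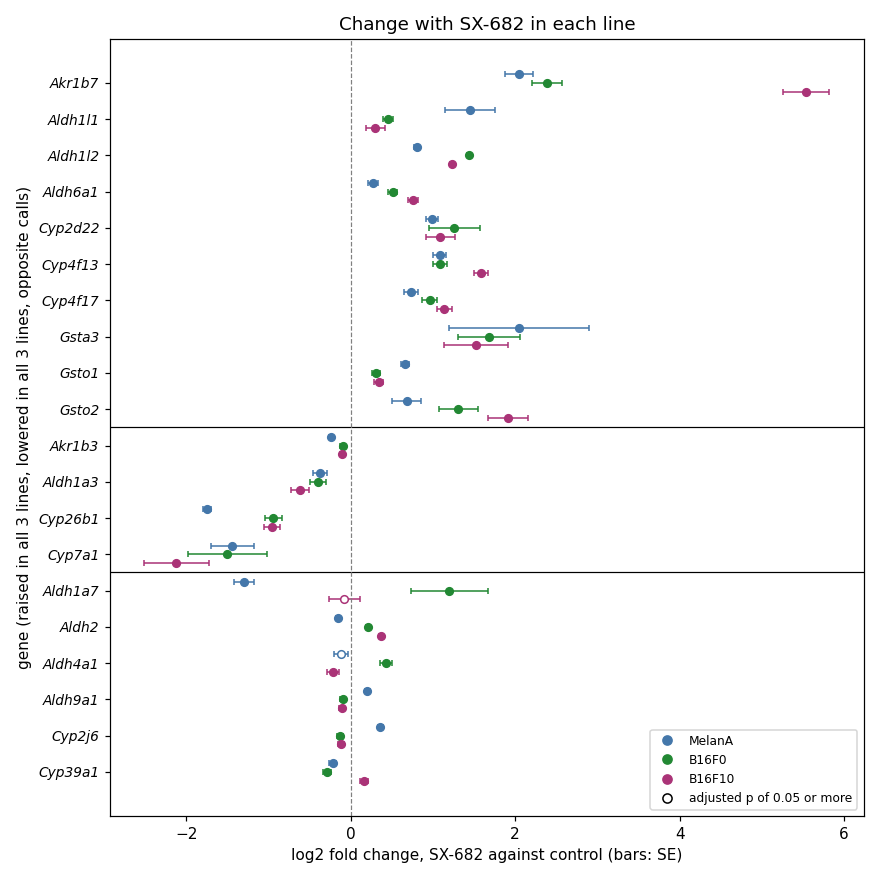
Points give the log2 fold change of SX-682 against control for the 10 members raised in all 3 lines, the 4 lowered in all 3 and the 6 with opposite calls, by line, with bars of 1 SE and open points for an adjusted p of 0.05 or more. Akr1b7 in B16F10, at 5.54, lies far to the right of all other points, and Akr1b3 and Gsto1 show that part of the calls are small changes.

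Cyp26b1 and Cyp7a1 were the CYP members that fell in all 3 lines. Cyp26b1 (chr6:84571414-84593908), which degrades retinoic acid, had 122 and 123 CPM in MelanA controls and 36.3 and 36.5 CPM with SX-682. In B16F0 it went from 7.26 and 7.3 CPM to 3.95 and 3.59 CPM, and in B16F10 from 7.46 and 5.98 CPM to 3.18 and 3.73 CPM. Every treated library was below both controls of its line, and MelanA had the highest level with and without SX-682. The log2 fold changes were -1.75 ± 0.052 (adjusted p = 1.6e-21), -0.94 ± 0.098 (adjusted p = 2.2e-09) and -0.96 ± 0.10 (adjusted p = 3e-09), and the MelanA fall was larger than the B16 mean by 0.80 ± 0.09 (adjusted p = 2.4e-08). Cyp7a1, the rate-limiting enzyme of bile acid synthesis, had 262 and 310 counts in MelanA controls and 84 and 90 with SX-682 (log2 fold change -1.44 ± 0.26, adjusted p = 2.2e-05). The B16 lines held few reads of it, 27 and 16 and then 6 and 6 counts in B16F0 (-1.5 ± 0.48, adjusted p = 0.011), and 45 and 42 and then 13 and 6 in B16F10 (-2.12 ± 0.39, adjusted p = 3.4e-05). The B16F0 call was lost without the first SX-682 library (-1.26, adjusted p = 0.11) or the first control (-1.16, adjusted p = 0.12). Cyp39a1, an oxysterol hydroxylase, fell in MelanA and B16F0 by 0.22 ± 0.046 and 0.29 ± 0.044 on the log2 scale and rose in B16F10 by 0.16 ± 0.044 (adjusted p = 0.00018, 1.6e-06 and 0.0038). Cyp46a1, a cholesterol hydroxylase, was called as raised in B16F10 from 1 and 0 counts to 11 and 5 (adjusted p = 0.011). Cyp26c1, another retinoic acid hydroxylase, had 16 counts in both MelanA controls and 29 and 34 with SX-682, and did not pass in any line (adjusted p = 0.097, 0.12 and 1.0).

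Cyp4f13 and Cyp4f17, of the fatty acid hydroxylases, rose in every line. Cyp4f13 (chr17:32924688-32947402), an omega-hydroxylase of fatty acids and eicosanoids, went from 7.64 and 7.78 CPM to 16 and 16.6 CPM in MelanA, from 6.58 and 7.03 to 14.1 and 15 CPM in B16F0 and from 5.59 and 5.52 to 16.1 and 17.2 CPM in B16F10. Controls of all lines thus lay under 8 CPM and treated libraries at or above 14.1 CPM. The log2 fold changes were 1.08 ± 0.079 (adjusted p = 1.1e-12), 1.09 ± 0.084 (adjusted p = 3.7e-12) and 1.58 ± 0.087 (adjusted p = 1.1e-15), and B16F10 responded more than B16F0 by 0.49 ± 0.12 (adjusted p = 0.0022). Cyp4f17, from the same cluster, rose by 0.73 ± 0.084, 0.96 ± 0.088 and 1.14 ± 0.093 (adjusted p = 1.4e-08, 1.7e-10 and 9.4e-12). Cyp4f16, which lies between them, did not pass in MelanA or B16F0 (log2 fold changes 0.03 and -0.10) and fell in B16F10 by 0.36 ± 0.077 (adjusted p = 0.00021). The difference between B16 and MelanA responses was 0.26 ± 0.099 for Cyp4f13 and 0.31 ± 0.11 for Cyp4f17 (adjusted p = 0.044 and 0.021), and both were lost when no expression filter was applied (adjusted p = 0.15 and 0.066). Leaving out single libraries lost the Cyp4f13 difference in 10 of 12 fits and the Cyp4f17 difference in 5, and a replicate block also lost that of Cyp4f13 (adjusted p = 0.054).

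Of the drug-metabolizing CYP genes of the 2d and 3a groups, Cyp2d22, Cyp3a13 and Cyp3a16 were tested, and they did not share a direction. Cyp2d22 (chr15:82370527-82380260), the mouse relative of the human drug-metabolizing CYP2D enzyme, had 24.6 and 25.4 CPM in MelanA controls and 50.4 and 49.1 CPM with SX-682 (log2 fold change 0.99 ± 0.072, adjusted p = 9.4e-13). B16F0 held 15 and 22 counts and then 30 and 41 (1.26 ± 0.31, adjusted p = 0.0012), and B16F10 69 and 61 counts and then 134 and 132 (1.09 ± 0.18, adjusted p = 3.8e-06). The differences between the responses did not pass, at 0.18 ± 0.19 for the B16 mean minus MelanA and -0.16 ± 0.36 for B16F10 minus B16F0 (adjusted p = 0.54 and 0.83). The B16F0 call was lost without its second SX-682 library (0.80, adjusted p = 0.079). Cyp3a13 rose in MelanA from 50 and 38 counts to 80 and 86 (1.19 ± 0.29, adjusted p = 0.0012) and in B16F10 from 94 and 115 to 205 and 219 (1.09 ± 0.26, adjusted p = 0.00062). In B16F0 it had 36 and 19 counts and then 29 and 37 (0.61 ± 0.35, adjusted p = 0.16). Cyp3a16 fell in B16F10 from 25 and 50 counts to 14 and 8 (-1.69 ± 0.63, adjusted p = 0.025), and held at most 6 counts in any library of the other lines.

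Cyp1a1 and Cyp1b1, the classical aryl hydrocarbon receptor targets, were not called as raised in any line. Cyp1a1 had 1 to 7 counts in MelanA libraries, and in B16F0 24 and 40 counts and then 27 and 17, with overlapping groups (adjusted p = 0.3 and 0.68). In B16F10 it fell from 184 and 207 counts to 92 and 79 (log2 fold change -1.13 ± 0.31, adjusted p = 0.0025). Cyp1b1 was a MelanA transcript, at 9.93 and 10.9 CPM in controls and 8.65 and 7.91 CPM with SX-682 (-0.33 ± 0.14, adjusted p = 0.051). B16F0 had 26 and 18 counts and then 14 and 2, and B16F10 10 and 11 and then 1 and 3, with log2 fold changes of -1.14 ± 0.44 and -2.27 ± 0.72 (adjusted p = 0.034 and 0.0087). The B16F0 value was -0.54 (adjusted p = 0.37) without the second SX-682 library and -2.84 without the first, and the B16F10 call was lost without its first SX-682 library (-1.69, adjusted p = 0.1). The epoxygenase Cyp2j6 rose in MelanA from 61.6 and 60.3 CPM to 76.9 and 79.4 CPM (0.36 ± 0.033, adjusted p = 1.6e-10) and fell in B16F0 and B16F10 by 0.13 ± 0.032 and 0.12 ± 0.032 (adjusted p = 0.0015 and 0.0017). Its neighbour Cyp2j9 rose in MelanA and B16F10 (0.69 ± 0.084 and 0.43 ± 0.097, adjusted p = 3.8e-08 and 0.00039) and had a log2 fold change of -0.05 in B16F0 (adjusted p = 0.75). The B16F10 response of Cyp2j9 was above that of B16F0 by 0.48 ± 0.14 (adjusted p = 0.0098), lost without the first B16F0 control (0.38, adjusted p = 0.086).

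Other CYP members were called in single lines or pairs of lines. Cyp20a1 rose in B16F10 from 31.1 and 30.7 CPM to 33.9 and 35.1 CPM (0.16 ± 0.048, adjusted p = 0.0059), a call lost without the second SX-682 library (adjusted p = 0.064) or the second control (adjusted p = 0.053). Cyp4v3, a fatty acid hydroxylase, rose in MelanA from 869 and 826 counts to 1186 and 1218 (0.78 ± 0.085, adjusted p = 4.7e-09) and in B16F10 by 0.45 ± 0.095 (adjusted p = 0.00016). Cyp2u1 fell in B16F0 and B16F10 by 0.45 ± 0.15 and 0.61 ± 0.15 (adjusted p = 0.015 and 0.00096). Cyp4f18 rose in MelanA from 10 and 2 counts to 33 in both libraries (adjusted p = 0.0043). Among the other AKR genes, Akr7a5 rose in MelanA and B16F10 by 0.34 ± 0.057 and 0.32 ± 0.061 (adjusted p = 9.6e-06 and 5.8e-05).

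**Figure D3:**
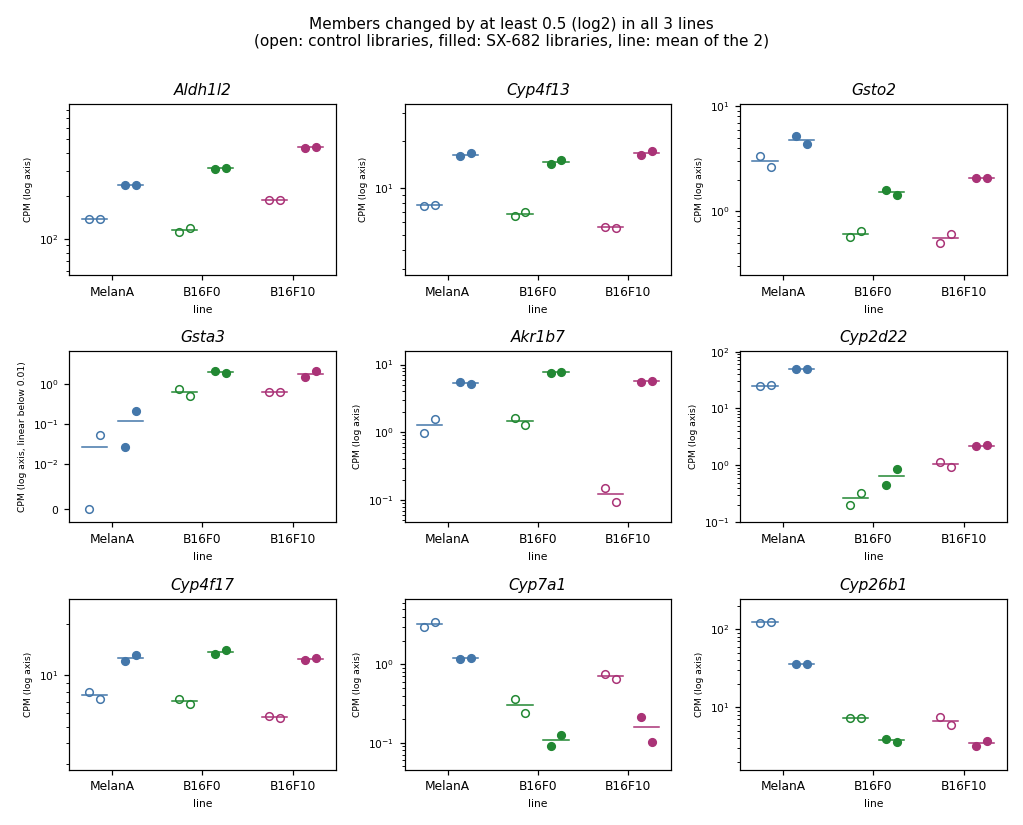
Each panel gives CPM on a log axis in the 12 libraries for a member that changed by at least 0.5 on the log2 scale in all 3 lines, with open points for controls, filled points for SX-682 and a line at the mean of 2. Aldh1l2, Cyp4f13 and Cyp4f17 lie higher with SX-682 in each line, Akr1b7 starts lowest in B16F10, and Gsta3 in MelanA rests on 0 to 16 counts.

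Among the glutathione S-transferases, the omega class rose and the main pi enzyme fell in the B16 lines. Gsto1 and Gsto2, adjacent genes on chromosome 19 whose enzymes reduce dehydroascorbate and transfer thiols, rose in all lines. Gsto1 went from 34.2 and 37.2 CPM to 55.3 and 57.3 CPM in MelanA (log2 fold change 0.66 ± 0.047, adjusted p = 8.3e-13), with smaller rises of 0.31 ± 0.05 and 0.34 ± 0.053 in B16F0 and B16F10 (adjusted p = 6.1e-06 and 2e-06). Gsto2 (chr19:47865534-47886324) had the opposite order. It went from 3.39 and 2.62 CPM to 5.26 and 4.37 CPM in MelanA, from 0.574 and 0.654 to 1.59 and 1.43 CPM in B16F0, and from 0.496 and 0.61 to 2.09 CPM in both B16F10 libraries. Its log2 fold changes were 0.68 ± 0.18 (adjusted p = 0.0022), 1.31 ± 0.24 (adjusted p = 3.6e-05) and 1.91 ± 0.24 (adjusted p = 7e-08). The B16 mean response exceeded the MelanA response by 0.93 ± 0.25 for Gsto2 (adjusted p = 0.0036) and was below it by 0.33 ± 0.06 for Gsto1 (adjusted p = 3.9e-05). The Gsto2 call in MelanA was lost without its first SX-682 library (0.55, adjusted p = 0.06) or its second control (0.51, adjusted p = 0.066).

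Gstp1 (chr19:4035407-4037985) had 276 and 270 CPM in MelanA controls and 266 and 262 CPM with SX-682 (log2 fold change -0.05 ± 0.023, adjusted p = 0.077). In B16F0 it went from 703 and 699 CPM to 620 and 602 CPM, and in B16F10 from 617 and 622 CPM to 456 and 459 CPM. The falls were 0.20 ± 0.022 and 0.44 ± 0.022 on the log2 scale (adjusted p = 8.7e-09 and 2.2e-16), and they differed by 0.24 ± 0.031 (adjusted p = 5.7e-07). Its neighbour Gstp2 was a B16F0 transcript. It had 12109 and 16310 counts in B16F0 controls and 15696 and 12005 with SX-682, against 22 to 42 counts in MelanA and 9 to 39 in B16F10. As a share of the Gstp1 count, Gstp2 was 23.0% and 34.7% in B16F0 controls, 38.4% and 41.4% in their SX-682 libraries, and at most 0.193% in every library of the other lines. Gstp2 shares 54.3% of its 50-base words with other genes and 49.1% with Gstp1, so how reads were divided between the pair is uncertain. The B16F0 controls differed from each other, at 162 and 242 CPM, and the treated libraries held 238 CPM or more. The rise called in edgeR (0.27 ± 0.09, adjusted p = 0.013) was 0.01 without the first control library (adjusted p = 0.99) and had an adjusted p of 0.72 in DESeq2.

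The alpha class went both ways. Gsta3 (chr1:21240589-21265661) rose in B16F0 from 58 and 34 counts to 146 and 92 (log2 fold change 1.68 ± 0.38, adjusted p = 0.00043) and in B16F10 from 38 and 42 to 95 and 124 (1.52 ± 0.39, adjusted p = 0.0014). In MelanA it had 0 and 5 counts and then 2 and 16, and the call there (2.05, adjusted p = 0.047) became 0.00 without the second SX-682 library and 1.14 without the first control (adjusted p = 1.0 and 0.31). Gsta1 fell in B16F0 from 11.3 and 11.4 CPM to 6.19 and 5.21 CPM (-0.98 ± 0.12, adjusted p = 3.6e-08) and in B16F10 from 6.23 and 5.96 CPM to 3.89 and 4.36 CPM (-0.56 ± 0.13, adjusted p = 0.00042). Its MelanA value was 0.14 ± 0.15 (adjusted p = 0.47), and the B16 mean was lower by 0.91 ± 0.17 (adjusted p = 8.5e-05). Gsta2 fell beside it in the B16 lines (-1.16 ± 0.15 and -0.74 ± 0.16, adjusted p = 1.5e-07 and 0.0002). Gsta1 shares 90.5% of its 50-base words with other genes and Gsta2 49.8%, so their values are uncertain as single genes. Gstz1, an enzyme of tyrosine breakdown, rose in B16F0 and B16F10 by 0.30 ± 0.062 and 0.46 ± 0.071 (adjusted p = 0.00012 and 1.8e-06) and had a MelanA value of 0.08 (adjusted p = 0.3).

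Changes in the mu class were small. Gstm1 and Gstm2 fell in MelanA (-0.16 ± 0.052 and -0.38 ± 0.047, adjusted p = 0.013 and 4.7e-08), Gstm5 rose in B16F10 (0.35 ± 0.065, adjusted p = 3.6e-05), and Gstm6 and Gstm7 passed in no line. Gstm4 was called as raised in B16F0 (0.35 ± 0.13, adjusted p = 0.032), but lost the call without any single B16F0 library (adjusted p = 0.085 to 0.12). Of the theta class, Gstt2 rose in B16F0 from 173 and 175 counts to 301 and 212 (0.87 ± 0.22, adjusted p = 0.0012). In B16F10 it had 7 and 5 counts and then 19 and 12 (1.41 ± 0.5, adjusted p = 0.018), a call lost without the first SX-682 library (adjusted p = 0.17) or the second control (adjusted p = 0.13). Gstt1 rose in B16F10 from 1 and 15 counts to 12 and 28 (1.38 ± 0.55, adjusted p = 0.037), with overlapping groups.

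**Figure D4:**
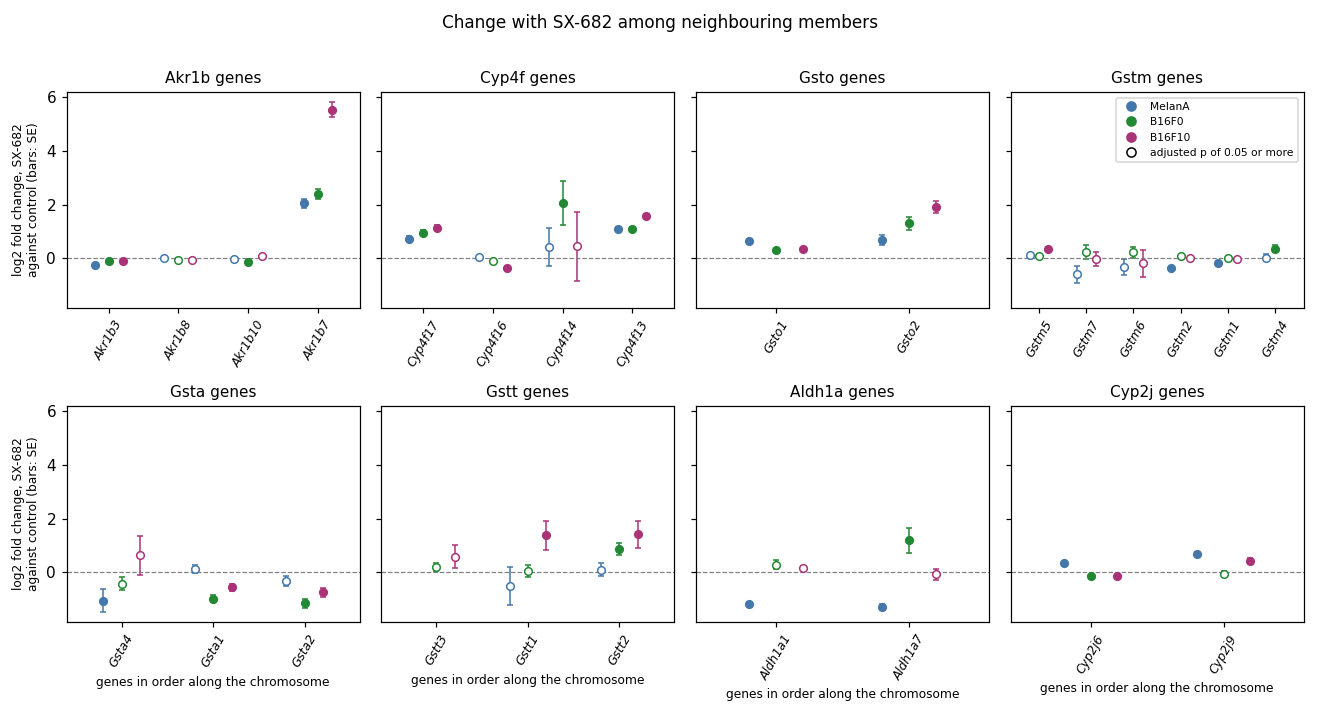
Points give the log2 fold change of SX-682 against control in each line, with bars of 1 SE, for members that are neighbours on a chromosome, in their order along it. Open points have an adjusted p of 0.05 or more, and Gstm4 in B16F10 and Gstt3 in MelanA are not drawn because they had 0 counts. Akr1b7 stands apart from its 3 neighbours, and both Gsto genes lie above 0 in every line.

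Sulfotransferases and glucuronosyltransferases gave few data. Of the 4 tested SULT members, 0 passed in any line in edgeR's quasi-likelihood test or in DESeq2, which gave no adjusted p for 1 of them in MelanA. At an unadjusted p under 0.05 the count was 1 in MelanA, Sult5a1 with 83 and 57 and then 27 and 24 counts, and 0 in B16F0 and B16F10. Sult6b1 had 131 and 179 counts in MelanA controls and 102 and 100 with SX-682 (-0.34 ± 0.31, adjusted p = 0.41). Sult2b1, which sulfates cholesterol, had 3 to 54 counts in all libraries. Ugt8a, which makes galactosylceramide, was the UGT gene tested. It had 308 and 303 counts in B16F0 controls and 144 and 99 with SX-682 (-1.02 ± 0.25, adjusted p = 0.001), 3 to 9 counts in MelanA libraries and 0 in all B16F10 libraries. Ugt1a2 had 8 and 6 counts in MelanA controls and 0 in every other library, and 59.3% of its exonic bases are shared with other genes on the same strand.

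Counted by line, SX-682 raised 18 and lowered 14 members in MelanA, 23.1% and 17.9% of those tested, beside 23.4% and 24.7% of all genes. In B16F0 it raised 20 and lowered 15, or 25.6% and 19.2%, beside 25.1% and 25.0%. In B16F10 it raised 28 and lowered 18, or 35.9% and 23.1%, beside 25.5% and 25.3%. The B16F10 raised count was lower in some fits without 1 library, and shares over all genes in those fits are not given. The ALDH family had 4 raised and 4 lowered of 17 in MelanA, 8 and 2 in B16F0 and 8 and 3 in B16F10. Of 18 GST members, 3 rose and 3 fell in MelanA, and 7 rose and 3 fell in each B16 line. Of 28 CYP members, 8 rose and 3 fell in MelanA, 4 and 6 in B16F0, and 9 and 9 in B16F10. A change of at least 1 on the log2 scale was called for 6 raised and 6 lowered members in MelanA (2.75% of all genes in each direction), 8 and 4 in B16F0 (4.67% and 3.16%) and 11 and 7 in B16F10 (4.76% and 3.42%). At least 1 line called 58 of the tested members, or 74.4%, beside 70.6% of all genes.

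The responses themselves were compared between lines. The B16 mean response was higher than the MelanA response for 20 members and lower for 11. These are 25.6% and 14.1% of those tested, beside 18.7% and 17.1% of all genes. Differences of at least 1 on the log2 scale were called for 4 and 2 members (2.52% and 1.69% of all genes). Each fit without 1 library called fewer than 20 members with a higher B16 response, and shares over all genes in those fits are not given. The B16F10 response was higher than that of B16F0 for 12 and lower for 3, or 15.4% and 3.85%, beside 15.3% and 14.9%. The difference was at least 1 for 2 of the 12 and for 0 of the 3 (1.66% and 1.47% of all genes). Those 3 were Aldh1l2, Aldh4a1 and Gstp1, and each shares 10% or more of its 50-base words with another gene.

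Untreated lines differed in most members. The B16 mean was above MelanA for 29 members and below for 35, or 37.2% and 44.9%, beside 33.7% and 42.4% of all genes. B16F10 was above B16F0 for 22 and below for 34, or 28.2% and 43.6%, beside 30.8% and 31.2%. Differences of at least 1 on the log2 scale were called for 17 and 26 members between the B16 mean and MelanA (11.4% and 23.2% of all genes) and for 9 and 17 between B16F10 and B16F0 (7.66% and 12.3%). The theta genes on chromosome 10 were highest in B16F0. Gstt3 had 635 and 545 counts in B16F0 controls, 8 and 10 in B16F10 and 0 in MelanA, so B16F0 was at least 245-fold higher than MelanA. Gstt1 had 471 and 379 counts in B16F0, 1 and 15 in B16F10 and 10 and 9 in MelanA. Gstm4 had 490 and 522 counts in MelanA, 344 and 308 in B16F0 and 0 in every B16F10 library, at least 95-fold lower in B16F10 than in B16F0. Gsta4, which conjugates hydroxynonenal, had 244 and 255 counts in B16F0, 26 and 22 in MelanA and 2 and 4 in B16F10. Its fall in MelanA with SX-682, to 7 and 12 counts (-1.05 ± 0.42, adjusted p = 0.039), was -0.74 without the first SX-682 library and -0.88 without the first control. The edgeR call was lost with no expression filter, in a fit of MelanA only and with a replicate block (adjusted p = 0.083, 0.11 and 0.051). Ugt8a was at least 89.3-fold higher in B16F0 than in B16F10. Aldh1b1, a mitochondrial aldehyde dehydrogenase, had 456 and 411 counts in B16F0, 137 in both B16F10 controls and 4 and 0 in MelanA. MelanA led for Cyp26b1, Cyp1b1, Cyp2d22, Aldh1a1, Aldh1a7, Akr1c12 and Akr1cl, with log2 fold changes of the B16 mean against MelanA of -4.13 for Cyp26b1, -5.50 for Cyp1b1, -5.58 for Cyp2d22 and -3.29 for Aldh1a1 (adjusted p at most 1.7e-26 apart from 2.5e-22 for Cyp1b1).

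**Figure D5:**
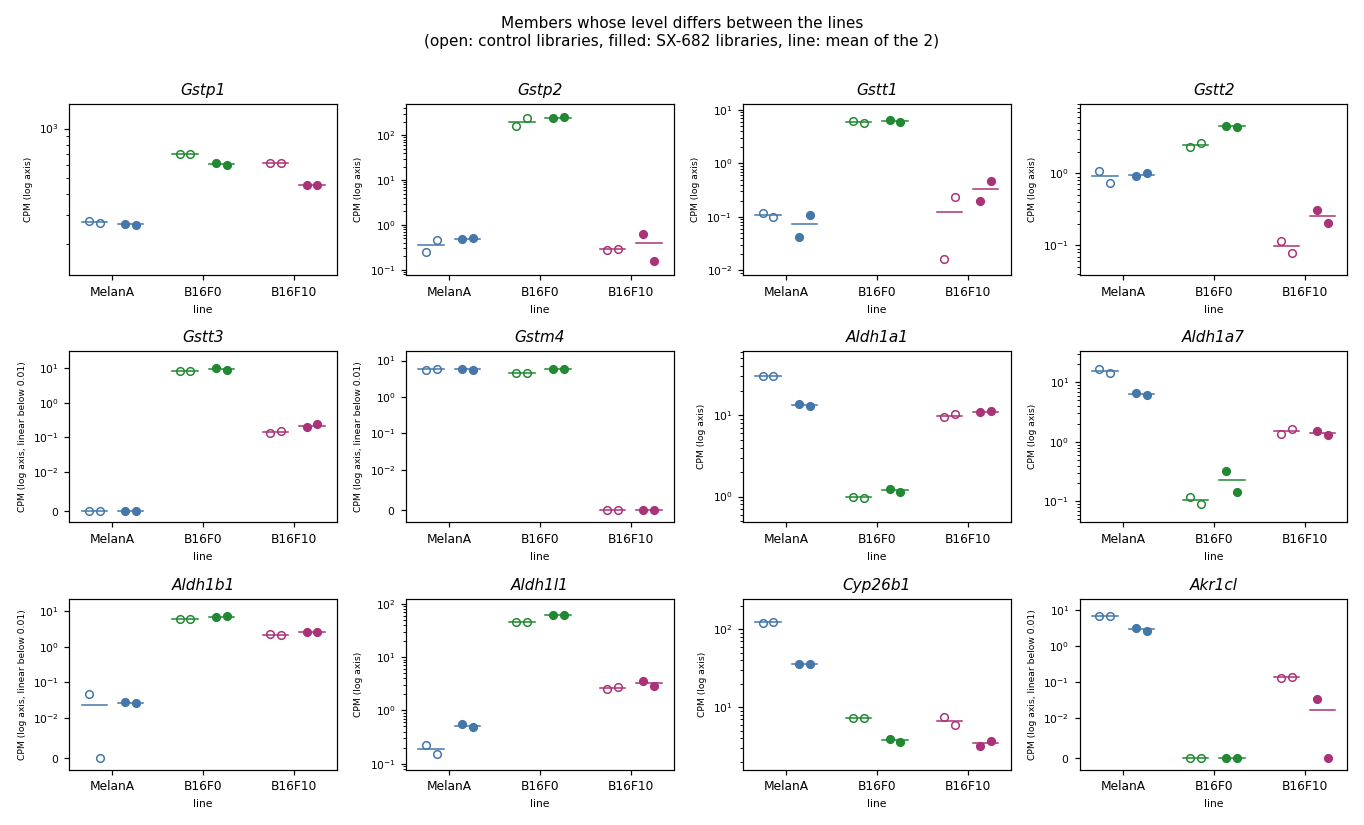
Each panel gives CPM on a log axis, linear below 0.01 where a library has 0 counts, in the 12 libraries for a member whose level differs between lines, with open points for controls, filled points for SX-682 and a line at the mean of 2. Gstp2, Gstt1 and Gstt3 are highest in B16F0, Gstm4 is at 0 in B16F10, Akr1cl is at 0 in B16F0, and Aldh1a1, Aldh1a7 and Cyp26b1 are highest in MelanA controls.

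Partner genes of the pathway were counted from a list of 59 regulators, electron donors, other oxidoreductases, other conjugating enzymes, cofactor suppliers and transporters. Of these, 54 were tested. SX-682 raised 16 and lowered 18 of them in MelanA, 19 and 13 in B16F0, and 18 and 22 in B16F10, with 10 raised and 8 lowered in all 3 lines. The shares over all genes were 23.4% and 24.7%, 25.1% and 25.0%, 25.5% and 25.3%, and 11.3% and 11.7% in the same order. Of 9 transporters, 2 rose and 3 fell in MelanA, 2 and 1 in B16F0, and 1 and 5 in B16F10. The transporters include Slc35b2, which carries the sulfate donor and is not an exporter of conjugates. It was among those called as lowered in B16F10 (log2 fold change -0.2). Abcc1, an exporter of glutathione conjugates, rose by 0.40 ± 0.03, 1.02 ± 0.029 and 0.63 ± 0.03 on the log2 scale in MelanA, B16F0 and B16F10 (adjusted p at most 1.4e-12). The exporter Abcg2 fell by 0.19 ± 0.041, 0.23 ± 0.044 and 0.22 ± 0.044 (adjusted p at most 0.00026). Maoa, a monoamine oxidase that yields aldehydes, rose by 0.40 ± 0.031, 0.90 ± 0.027 and 0.67 ± 0.028 (adjusted p at most 3.9e-12). Cyb5b, an electron donor, fell by 0.58 ± 0.025, 0.32 ± 0.024 and 0.50 ± 0.024 (adjusted p at most 1.6e-12), and the quinone reductase Nqo2 fell by 0.70 ± 0.076, 0.57 ± 0.068 and 0.56 ± 0.072 (adjusted p at most 9.9e-08). Of the 9 regulators tested, Arnt, Nfe2l2 and Mafg rose and Ahr and Bach1 fell in all 3 lines, beside 11.3% and 11.7% of all genes. Part of these calls were small or at low levels. Bach1 in B16F0 had a log2 fold change of -0.10 ± 0.042 (edgeR adjusted p = 0.044), and Ahr lay at 0.463 to 1.12 CPM in MelanA libraries.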

How the data were processed

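RNA-seq of 12 mouse libraries was analysed, 2 for each of 6 groups. The authors deposited gene-level read counts that are not normalized. The submitters' processing notes name cutadapt, STAR, DESeq2 and the mm10 build, while versions, the counting program and strand use are not given in the sources used here.

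The members, gene lists and tests were chosen with earlier results of these data known. Counts were fitted in edgeR 4.0.16 (R 4.3.3) with trimmed-mean-of-M-values scaling, filterByExpr (18338 of 34513 genes kept) and the quasi-likelihood F-test, all 6 groups in 1 fit, prior count 0.125. P-values were adjusted by Benjamini-Hochberg over all genes tested, with a threshold of 0.05, and standard errors were derived from F. CPM used the scaled totals, 48876982 to 85322092 counts before scaling, and a floor of 3 counts per library, which covers counting error only. Library values of 2 against 2 allow no exact permutation p below 0.333. The procedure was also run on simulated counts in which only genes above a minimum mean count were changed, so genes with low mean counts were not covered.

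Alternatives were DESeq2 1.42.0, its size factors in edgeR, no filter, a minimum of 10 counts per library, a fit of the compared lines only, a replicate block, a prior count of 2 and each library left out. Leaving out members that share 10% or more of their 50-base words or exonic bases with another gene was added after seeing the data. Named were the 2 most abundant members per kilobase in each family, members changed by at least 0.5 on the log2 scale in all 3 lines, the 4 largest non-overlapping rises and falls per line, the 3 largest response differences and the 4 largest untreated differences each way. The latter 3 groups needed a mean log2 CPM of at least 0. Named after their values were seen were, among others, Aldh3a2, Aldh6a1, Aldh7a1, Cyp1a1, Cyp26c1, Cyp39a1, Cyp3a16, Cyp46a1, Cyp4v3, Cyp4x1, Gstm1, Gsto1, Gstt1 and Gstz1. So were the partners Abcg2, Ahr, Arnt, Bach1, Mafg, Nfe2l2 and Slc35b2. Gene positions were those of GENCODE M21 for 163 of 165 members, and promoters were read from RefSeq on GRCm38.p6.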

Additional observations from a re-analysis of the deposited data

Results flagged for a closer look

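The SX-682 response differed between lines for several named members when the difference itself was tested in edgeR (quasi-likelihood). Of 35 members named by rule and tested, 19 differed between the B16 mean and MelanA and 7 between B16F10 and B16F0. The rule named part of them because one of these differences passed, so the counts do not measure how common differences are. Over all genes, 18.7% had a higher and 17.1% a lower response in the B16 mean than in MelanA. For B16F10 against B16F0 the shares were 15.3% and 14.9%. Members named after their values were seen, such as Gsto1, are not among the 35. Values are differences of log2 fold changes, and a positive value means a higher response in the B16 lines or in B16F10. Leaving out 1 library at a time lost the B16 against MelanA call for Akr1a1 in 11 of 12 fits, Cyp4f13 in 10, Cyp4f17 in 5, Gstt2 in 4, Gsta2 in 2, and Cyp1b1 and Aldh1l1 in 1 each. The B16F10 against B16F0 call for Cyp2j9 was lost in 3.

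Higher in the B16 mean than in MelanA were Akr1b7 by 1.92, Aldh1a7 by 1.86, Aldh1a1 by 1.40, Gstt2 by 1.04, Gsto2 by 0.93 and Cyp26b1 by 0.80. Smaller positive differences were Aldh1l2 at 0.53, Aldh2 at 0.44, Cyp4f17 at 0.31, Cyp4f13 at 0.26, Akr1b3 at 0.14 and Akr1a1 at 0.07. For Cyp26b1 and Akr1b3 a positive value means a smaller fall. Values without 1 library ran from 0.05 to 0.08 for Akr1a1, 0.22 to 0.28 for Cyp4f13, 0.24 to 0.37 for Cyp4f17 and 0.73 to 1.30 for Gstt2, the lowest of these for Gstt2 without the first MelanA control. Lower in the B16 mean were Cyp1b1 at -1.37, Aldh1l1 at -1.08, Gsta1 at -0.91, Gsta2 at -0.63, Cyp2j9 at -0.50, Cyp2j6 at -0.48 and Gstp1 at -0.27. The call was lost at -1.09 for Cyp1b1 without the first B16F10 SX-682 library, at -0.84 for Aldh1l1 without the second MelanA control, and at -0.62 and -0.55 for Gsta2 without the second MelanA SX-682 library or control.

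Between the B16 lines, the B16F10 response was higher than that of B16F0 for Akr1b7 by 3.15, Cyp4f13 by 0.49, Cyp2j9 by 0.48 and Aldh2 by 0.16. It was lower for Aldh4a1 at -0.65, Gstp1 at -0.24 and Aldh1l2 at -0.21.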

How the results depend on the processing

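No called value of the members named by rule reversed direction under the alternatives run. Values of members named after they were seen, such as Cyp3a16, Cyp46a1 and Cyp4v3, were not followed singly and entered the counts only. Of the counts of members recomputed, 286 stayed within 1.5 times the reported count and 16 did not, and of the values of named members 4354 kept their side of the threshold, 119 lost it and 27 gained it. Requiring at least 10 counts in every library, which tests fewer members, gave 9 members lowered in MelanA, 16 lower in untreated B16 than MelanA, 15 of them among the reported calls, and 21 lower in untreated B16F10 than B16F0. Leaving out members with shared sequence, which also tests fewer, left 9 lowered in MelanA, 13 raised and 9 lowered in B16F0, 8 lowered in B16F10 and 6 raised in all 3 lines. The same step left 6 with a lower B16 than MelanA response, 0 with a lower B16F10 than B16F0 response, 17 higher in untreated B16 than MelanA, and 14 higher and 22 lower in untreated B16F10 than B16F0. With single libraries left out, 6 to 13 members had a higher B16F10 than B16F0 response, with 6 without the first B16F0 control or the first B16F10 SX-682 library and 7 without the second B16F10 control.

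The labels do not say whether the replicate number pairs the samples. Deviations of same-numbered libraries correlated at 0.00108 in MelanA, 0.0222 in B16F0 and 0.00975 in B16F10. A low correlation over genes cannot exclude pairing. With the replicate number as a block, 18 members rose and 14 fell in MelanA, 20 and 15 in B16F0, and 27 and 19 in B16F10. In all 3 lines 9 were raised and 6 lowered. For Gsta3 in MelanA and Akr1cl and Cyp1b1 in B16F10, all at low counts, a prior count of 2 moved the log2 fold change to 1.40, -1.85 and -1.66. The 87 members that failed the expression filter entered no test of groups. Among them, Cyp4x1 had 24 and 9 counts in MelanA controls against 2 and 1 with SX-682 (ratio 9.09, 95% exact counting interval 2.85 to 46.3). The interval covers counting error only, while the controls themselves differed. It is not adjusted for the choice of Cyp4x1 after its values were seen, so it does not exclude equality. Cyp4x1 shares 14.9% of its 50-base words with other genes.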
